A study of Mus musculus with 4 samples.

Results

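The heat shock chaperone genes described here are Hspa1a, Hspa1b, Hspa5, Hspa8, Hsp90aa1, Hsp90ab1, Dnajb1 and Hsph1, chosen by symbol, and they are 8 of the 15690 gene symbols measured in the study. All 8 had counts in every plate. Chaperones bind unfolded stretches of other proteins and help them to fold, to be carried across membranes or to be broken down. The Hsp70 proteins (Hspa1a, Hspa1b, Hspa5, Hspa8) work in cycles driven by ATP, in which J-domain proteins such as Dnajb1 start ATP hydrolysis and exchange factors such as Hsph1 release ADP, while the Hsp90 proteins (Hsp90aa1, Hsp90ab1) act later on kinases, hormone receptors and other clients. Hspa1a, Hspa1b, Dnajb1 and Hsph1 are classical targets of the heat shock factor HSF1, Hspa8 and Hsp90ab1 are made in nearly all cells without stress, and Hspa5 (BiP) serves the endoplasmic reticulum (ER). In brain macrophages Hspa1a is also one of the genes known to be induced when tissue is dissociated for cell sorting, together with Fos and other immediate early genes, and the part of this in the present values was not tested.

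Transcripts were counted in single myeloid cells sorted from tumor-bearing brains of mice with lung cancer brain metastases into 384-well plates, 1 plate per group. The 4 groups were microglia with whole brain radiation therapy (WBRT), microglia without WBRT, BMDM (bone marrow-derived macrophages, which enter the brain from blood) with WBRT and BMDM without WBRT. All mice carried the athymic nude background Balb/C (CAnN.Cg-Foxn1nu/Crl), so the hosts lack most T cells; the WBRT label gives 5 fractions of 2 Gy with the term d3, whose starting point is not stated, and no ages or numbers of animals are given. Plates with WBRT carry the tumor stage label "not stratified" and plates without WBRT the label "small", so treatment, tumor stage and plate cannot be told apart, and with 1 plate per group no test could be made.

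Wells with at least 1000 counts outside spike-in (ERCC) and mitochondrial rows and an ERCC share under 50% were kept, which left 151 wells of microglia with WBRT, 157 of microglia without WBRT, 262 of BMDM with WBRT and 234 of BMDM without WBRT. Their counts totalled 649107, 874710, 2513025 and 1265842, and the median well held 2546, 4789, 8894 and 4388 counts, each in that order of plates. The median ERCC share was 30.6% in microglia with WBRT and 6.92% to 7.86% in the other plates. The nuclear RNA Malat1 stood under 1000 CPM (counts per 1000000 endogenous counts) in 106 of 151, 70 of 157, 59 of 262 and 19 of 234 wells in the same order. Microglia markers summed to 10494 and 9595 CPM in the microglia plates with and without WBRT, and to 2883 and 3466 CPM in the BMDM plates with and without WBRT, where monocyte markers summed to 2289 and 1921 CPM. The BMDM plates thus held transcripts of microglia markers, some of which, such as Cx3cr1, other macrophages express too, and leaving out BMDM wells with 5 or more such counts left 45 wells with WBRT and 102 without. All 384 well names recur in every plate, since each plate uses the same barcodes, and 0 kept wells had identical values in 2 plates. Levels are pooled CPM of a plate, brackets give 95% intervals that cover counting error only, and log2 ratios were taken on CPM + 5.

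Hspa1a and Hspa1b lie side by side on chromosome 17 (GRCm38.p6, 34969359 to 34972156 and 34956429 to 34959238, both on the minus strand), in the same chromosome region as Tnf (35199367 to 35202007). Both are single-exon genes that code for nearly the same protein. Their coding sequences were 99.4% identical, whereas their 3' untranslated regions, from which a method that reads transcript ends draws most of its tags, were 48.1% identical, and 0 of 351 stretches of 50 bases from the last 400 bases of either transcript occurred in the other. Counts of the pair could thus be separated where reads lay near the end, but no source used here says how reads in the coding part were assigned. The 250 bases before each annotated start (RefSeq, GRCm38.p6, printed 5' to 3') are shown because the pair is usually taken as co-induced, and they were identical at 247 of 250 positions. Capitals mark the letters of GAANNTTC, a pair of the inverted units that HSF1 binds, which in both genes lay 104 to 97 bases before the start.
Hspa1a, chr17:34972157-34972406: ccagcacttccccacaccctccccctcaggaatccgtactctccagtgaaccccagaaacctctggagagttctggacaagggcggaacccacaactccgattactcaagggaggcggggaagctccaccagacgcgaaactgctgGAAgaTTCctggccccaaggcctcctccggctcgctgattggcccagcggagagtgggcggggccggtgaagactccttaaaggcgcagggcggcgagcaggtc
Hspa1b, chr17:34959239-34959488: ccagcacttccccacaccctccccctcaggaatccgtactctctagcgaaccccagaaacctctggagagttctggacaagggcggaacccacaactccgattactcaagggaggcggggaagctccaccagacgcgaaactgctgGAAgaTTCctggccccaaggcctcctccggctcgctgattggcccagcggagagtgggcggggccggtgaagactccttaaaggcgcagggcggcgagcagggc

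In the 300-base promoter windows of the annotation (250 bases before and 50 after a start, both strands searched), GAANNTTC occurred in 7.86% of 32851 windows, TTCNNGAA in 8.52% and the 3-unit form GAANNTTCNNGAA in 0.603%. The motifs overlap each other in part. For Hsph1 (chromosome 5, 149616843 to 149636498, minus strand) the 3-unit form was found just after the start and TTCNNGAA just before it, shown as short sites with the units in capitals.
Hsph1, chr5:149636357-149636374: aatctTTCtcGAAggctc
Hsph1, chr5:149636287-149636303: agaTTCtgGAAagTTCt
Neither of the windows listed for Dnajb1 held these letters. For Hspa5 (chromosome 2, 34772090 to 34776529, plus strand) the window held the ER stress element CCAATN9CCACG, which 0.119% of all windows held, here 65 to 47 bases before the start and marked in capitals.
Hspa5, chr2:34771840-34772089: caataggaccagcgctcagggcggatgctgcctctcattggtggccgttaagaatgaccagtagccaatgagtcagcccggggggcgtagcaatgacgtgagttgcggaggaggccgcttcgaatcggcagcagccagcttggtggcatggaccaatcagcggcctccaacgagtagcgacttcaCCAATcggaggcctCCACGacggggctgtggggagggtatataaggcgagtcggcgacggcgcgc

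Of the inducible Hsp70 genes, Hspa1a was the member that differed most between the plates. It stood at 196 CPM (163 to 233) in microglia with WBRT, 48.0 (34.6 to 64.9) in microglia without WBRT, 35.04 (28.1 to 43.1) in BMDM with WBRT and 17.4 (10.9 to 26.3) in BMDM without WBRT. The first plate stood clear of the others, and only the intervals of microglia without WBRT and BMDM with WBRT overlapped among neighbours in this order. The level with WBRT was 4.08-fold that without in microglia (2.85 to 5.92) and 2.02-fold in BMDM (1.25 to 3.38), and microglia exceeded BMDM 5.59-fold with WBRT (4.22 to 7.42) and 2.76-fold without (1.61 to 4.86). Among wells under 1000 CPM of Malat1 with WBRT, the order was not seen, at 6.22 CPM in microglia and 19.2 CPM in BMDM (2 and 6 counts). In BMDM the ratio turned to a log2 value of -0.12 without wells of 5 or more microglia marker counts and to -0.075 without wells of 3 or more dendritic cell marker counts.

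Few wells carried Hspa1a. A UMI (unique molecular identifier, 1 per captured transcript) of it was seen in 23 of 151 wells of microglia with WBRT (15.2%, 9.91 to 22.0), 20 of 157 of microglia without WBRT (12.7%, 7.96 to 19.0), 26 of 262 of BMDM with WBRT (9.92%, 6.58 to 14.2) and 16 of 234 of BMDM without WBRT (6.84%, 3.96 to 10.9). The shares in the microglia plates lay closer together than the levels. After thinning every well to 1000 UMIs they were 5.96% with WBRT (2.76 to 11.01) and 3.82% without (1.42 to 8.13), which overlap, and thinning to 2000 UMIs gave 12.4% of 105 wells and 5.69% of 123 wells. No cell type of these sorts should lack these genes, so no background share from free RNA could be set beside them. The highest well of microglia with WBRT had 32 counts of Hspa1a at 3310 CPM, against 7 counts in the well with the most in microglia without WBRT, and the 5 wells with the most held 58.3% and 57.2% of the counts of these plates. Leaving out the 5 wells with the most Hspa1a from each plate gave 88.6 CPM (66.4 to 116) in microglia with WBRT and 21.7 (12.9 to 34.3) in microglia without, still 4.08-fold apart (2.35 to 7.40), whereas the same in BMDM gave 1.70-fold (0.85 to 3.68). With every well weighted alike the log2 ratio for WBRT in microglia was 1.23 and after thinning to 1000 UMIs 0.74, against 1.92 from pooled counts, so the difference was smaller once deep wells counted no more than shallow ones.

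Hspa1b, the neighbouring copy, had far fewer counts in microglia and, over all wells, another order of plates. It stood at 21.6 CPM (11.8 to 36.2) in microglia with WBRT and 14.9 (7.91 to 25.4) in microglia without WBRT, a 1.45-fold ratio (0.63 to 3.35) that includes no difference. In BMDM it stood at 37.9 CPM (30.6 to 46.2) with WBRT and 15.8 (9.65 to 24.4) without, 2.40-fold (1.47 to 4.09). Single wells carried much of this. In BMDM with WBRT 1 well held 31 of 95 counts at 13229.9 CPM with 0 counts of Hspa1a, and in microglia without WBRT 1 well held 9 of 13. Among wells with at least 1000 CPM of Malat1, which leave out that BMDM well, the log2 ratio for WBRT in BMDM was 0.23, against 1.04 over all wells. In that range Hspa1b stood at 42.7 CPM (23.4 to 71.7) in microglia with WBRT and 19.4 without. In BMDM it stood there at 20.9 CPM (15.3 to 27.9) with WBRT and 17.0 without. Microglia with WBRT thus stood highest in that range, as for Hspa1a, though its interval overlapped that of BMDM with WBRT. Hspa1a and Hspa1b were seen together in 7 of 8 Hspa1b wells of microglia with WBRT, 0 of 5 of microglia without WBRT, 7 of 25 of BMDM with WBRT and 2 of 12 of BMDM without WBRT.

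**Figure D1:**
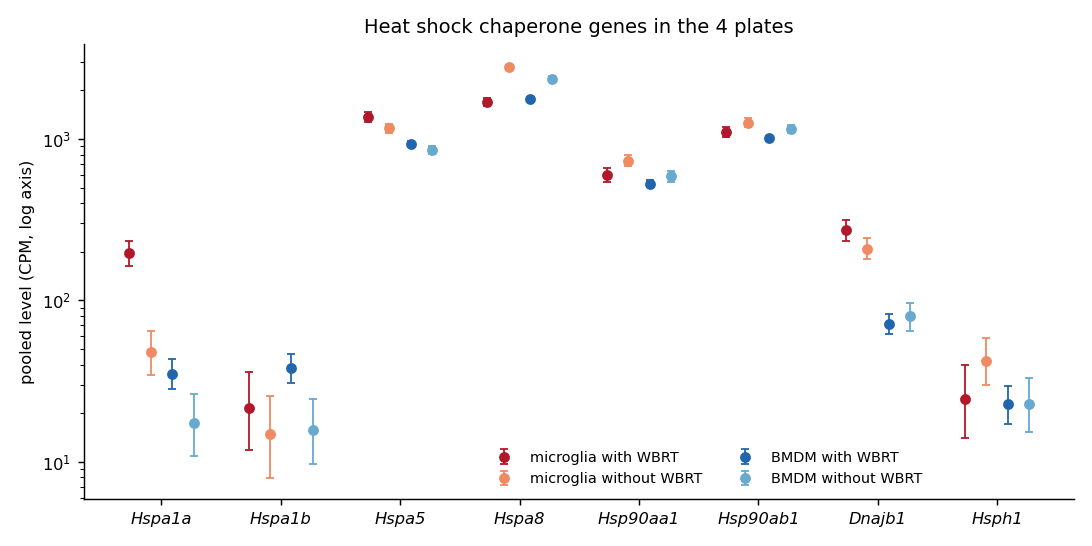
Pooled level of each of the 8 genes (log axis, CPM) in the 4 plates, with bars for the 95% counting interval. Hspa1a in microglia with WBRT, at 196 CPM, stands above the 3 other plates, and Dnajb1 stands higher in both microglia plates than in both BMDM plates.

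The partners of Hsp70 went separate ways. Dnajb1 (chromosome 8, 83608175 to 83612653), the J-domain protein of the cytosol, differed more in pooled level between microglia and BMDM than with WBRT. It stood at 271 CPM (233 to 314) in microglia with WBRT and 209 (180 to 242) in microglia without, against 71.6 (61.5 to 82.9) in BMDM with WBRT and 79.8 (65.0 to 97.0) in BMDM without. Microglia exceeded BMDM 3.79-fold with WBRT (3.06 to 4.69) and 2.62-fold without (2.05 to 3.38), with no overlap of intervals. Among wells under 1000 CPM of Malat1 the log2 ratio of microglia over BMDM was 0.57 with WBRT and 1.96 without. The WBRT ratio was 1.30-fold in microglia (1.05 to 1.60) and 0.898-fold in BMDM (0.70 to 1.16). In microglia it turned below 1 when every well was weighted alike or thinned (log2 -0.057 and -0.14). Of the wells, 39 of 151 of microglia with WBRT and 61 of 157 without had a UMI of Dnajb1 (25.8%, 19.1 to 33.6, and 38.9%, 31.2 to 46.9), fewer wells with WBRT at a higher pooled level. The plate with WBRT was shallower, and after thinning to 1000 UMIs the shares were 9.93% (5.67 to 15.9) and 15.9% (10.6 to 22.6), which overlap.

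Hsph1, the Hsp110 exchange factor, was scarce everywhere, with 16, 37, 57 and 29 counts in microglia with WBRT, microglia without WBRT, BMDM with WBRT and BMDM without WBRT. Its levels were 24.6 CPM (14.1 to 40.0) and 42.3 (29.8 to 58.3) in microglia with and without WBRT, and 22.7 and 22.9 CPM in BMDM with and without WBRT. The microglia ratio of 0.583 (0.30 to 1.07) did not exclude equal levels, and the 1.85-fold excess of microglia over BMDM without WBRT (1.10 to 3.11) was the largest of its ratios. In microglia its WBRT ratio lay below 1 and that of Hspa1a above 1.

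The constitutive chaperone Hspa8 (Hsc70; chromosome 9, 40801276 to 40805202) was lower with WBRT in both sorts. In microglia it stood at 1694 CPM with WBRT (1596 to 1798) and 2770 without (2661 to 2883), 1.63-fold lower (1.52 to 1.76), and in BMDM at 1764 (1712 to 1816) and 2356 (2272 to 2442), 1.34-fold lower (1.27 to 1.40). Both plates with WBRT had Hspa8 below both plates without. It was also the most widely seen member, in 134 of 151 wells of microglia with WBRT (88.7%, 82.6 to 93.3) and in 94.9% to 98.5% of the wells of the other plates.

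The Hsp90 genes differed little in pooled level. Hsp90aa1 (chromosome 12, 110691036 to 110696395), the more inducible of the pair, stood at 599.9 CPM (541 to 662) in microglia with WBRT and 733 (677 to 792) without, and at 529 (500.4 to 558) in BMDM with WBRT and 585 (544 to 629) without. Hsp90ab1 (chromosome 17, 45567778 to 45573261), the constitutive one, stood at 1104 CPM (1025 to 1188) in microglia with WBRT and 1263 (1190 to 1340) without, and at 1008 (969 to 1048) in BMDM with WBRT and 1150 (1092 to 1211) without. All 4 pooled WBRT ratios lay between 0.819 and 0.903, while the signs of 3 of them turned under at least 1 other weighting or choice of wells. In microglia the WBRT log2 ratio of Hsp90ab1 was -0.71 among wells with at least 1000 CPM of Malat1 and 0.20 under it. That of Hsp90aa1 was 0.017 and -0.65.

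Hspa5, the Hsp70 of the ER and a target of the unfolded protein response, had higher pooled levels in microglia than in BMDM, while the shares of wells that carried it did not follow that order. It stood at 1369 CPM (1280 to 1461) in microglia with WBRT and 1165 (1095 to 1239) without, against 928 (890 to 966) in BMDM with WBRT and 852 (802 to 905) without. Microglia exceeded BMDM 1.48-fold with WBRT (1.36 to 1.59) and 1.37-fold without (1.25 to 1.49). With WBRT the log2 ratio of microglia over BMDM was 1.03 among wells with at least 1000 CPM of Malat1 and 0.044 among wells under it, and without WBRT 0.52 and 0.54. A UMI of Hspa5 was in 70.9% of wells of microglia with WBRT and 86.6% of microglia without, against 92.0% of BMDM with WBRT and 85.04% of BMDM without, and after thinning to 1000 UMIs in 52.3%, 55.4%, 50.8% and 48.3% in that order, with intervals that overlap. The WBRT ratios were 1.18-fold in microglia (1.07 to 1.29) and 1.09-fold in BMDM (1.01 to 1.17), and the microglia ratio turned to a log2 value of -0.13 after thinning to 1000 UMIs. Among wells it spread more in microglia with WBRT than without, with 107 of 151 and 136 of 157 wells carrying it and coefficients of variation of 1.07 and 0.771. These values are unthinned, the median wells held 2546 and 4789 counts, and the part of depth in this spread was not tested.

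**Figure D2:**
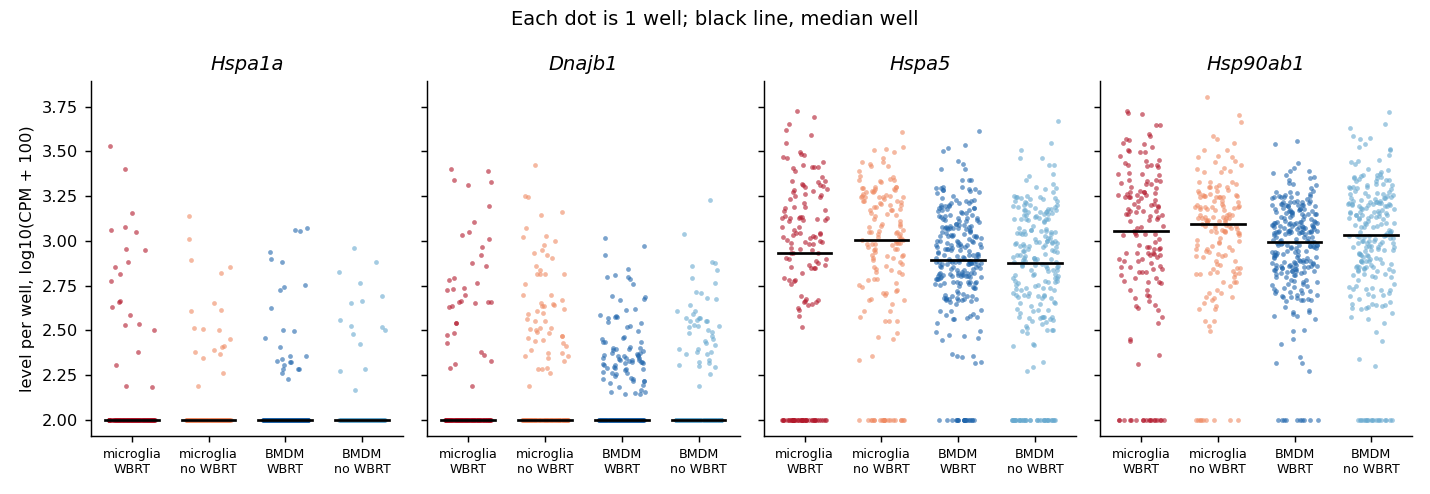
Level per well of Hspa1a, Dnajb1, Hspa5 and Hsp90ab1, as log10 of CPM + 100, in the 4 plates, where each dot is 1 well and a black line is the median well. The median well is at 0 for Hspa1a and Dnajb1 in every plate, and only a scatter of wells rises above it.

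Taking the 8 genes as a list, 1 was at least 2-fold higher with WBRT in microglia (Hspa1a), against a background of 9.36% of the 6723 genes counted in that comparison, and 0 were at least 2-fold lower, against 7.56%. In BMDM 1 was higher with WBRT (Hspa1b), against 5.16% of 6551 genes, and 0 lower, against 6.14%. Over BMDM, 2 of the 8 were higher in microglia with WBRT (Hspa1a and Dnajb1), against 7.45%, with 0 lower against 7.91%. Without WBRT the same 2 of 7 counted members were higher, against 6.81%, with 0 lower against 10.3%. Hspa1b stood under 20 CPM in both plates without WBRT and was not counted there. The median log2 ratio of the 8 was 0.019 for WBRT in microglia and -0.078 in BMDM, where all counted genes had medians of 0.065 and 0.079, and 0.16 for microglia over BMDM with WBRT and 0.39 without, where all counted genes had -0.066 and -0.023.

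Related chaperone lists, chosen with earlier results of these data known, are described by counts of genes of at least 20 CPM in 1 of the 2 plates. Of all genes counted in this way, 53.7% were higher with WBRT in microglia and 55.9% in BMDM, and 45.9% were higher in microglia than in BMDM with WBRT and 48.9% without, and these are the shares that each list is set against. Of the cytosolic co-chaperones and heat shock genes beyond the 8, 11 of 27 were higher with WBRT in microglia (40.7%, against 53.7% of all counted genes), with a median log2 ratio of -0.051. The immunophilin gene Fkbp5, a co-chaperone of Hsp90, stood at 29.3 CPM with WBRT and 97.2 without (log2 -1.58), and the Hsp110 relative Hspa4 at 87.8 and 176 CPM (log2 -0.96). Dnajb4, another J-domain gene, stood at 40.1 and 20.6 CPM (log2 0.82). The small heat shock gene Cryab stood at 12.3 and 25.2 CPM (log2 -0.80). In BMDM 16 of 24 were higher with WBRT (66.7%, against 55.9%; median 0.068). Fkbp5 stood at 29.4 CPM with WBRT and 71.9 without, on the same side as in microglia, the Hsp90 activator Ahsa1 at 93.1 and 47.4 CPM, and the J-domain gene Dnajc7 at 68.8 and 116.9 CPM. Over BMDM without WBRT, 19 of 26 were higher in microglia (73.1%, against 48.9%; median 0.26), among them the Hsp70 exchange factors Bag3, at 50.3 against 20.5 CPM, and Bag1, at 209 against 102 CPM. With WBRT 17 of 26 were higher (65.4%, against 45.9%; median 0.073), led by the ubiquitin gene Ubb, at 20.03 against 5.97 CPM, while the Hsp90 co-chaperone gene Chordc1 stood at 26.2 against 50.9 CPM.

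Of the ER chaperone and unfolded protein response genes, 22 of 24 were higher in microglia than in BMDM without WBRT (91.7%, against 48.9% of all counted genes; median log2 0.48) and 18 of 25 with WBRT (72.0%, against 45.9%; median 0.19), on the same side as Hspa5. Ddit3 (CHOP), a transcription factor of that response, stood at 184 CPM in microglia and 50.6 in BMDM without WBRT, and the factor Atf4 at 663 and 327. In BMDM 18 of 24 were higher with WBRT (75%, against 55.9%; median 0.36), with the disulfide isomerase genes Pdia4, at 62.1 against 23.7 CPM, and P4hb, at 436 against 224, and the ER Hsp90 gene Hsp90b1 at 768 against 436. Herpud1, which serves the degradation of ER proteins, ran the other way, at 107 against 186 CPM (log2 -0.77). In microglia 14 of 25 were higher with WBRT, a share of 56.0% that lies near the 53.7% of all counted genes (median 0.077). Xbp1, another factor of the response, stood at 169.6 CPM with WBRT and 81.2 without. The Hsp110 relative of the ER, Hyou1, stood at 41.6 and 74.3 CPM (log2 -0.77), and Pdia4 at 44.7 and 70.9 CPM (log2 -0.61), on the other side from its ratio in BMDM. Eif2ak3, a kinase of the response, stood at 21.6 and 12.6 CPM (log2 0.60). The chaperonin (TRiC and prefoldin) genes were higher with WBRT for 5 of 12 in microglia (41.7%, against 53.7%) and 6 of 12 in BMDM (50%, against 55.9%), and higher in microglia than in BMDM for 4 of 12 with WBRT (33.3%, against 45.9%) and 5 of 12 without (41.7%, against 48.9%). Of those, Tcp1 stood at 70.9 CPM with WBRT and 32.0 without in microglia, and the prefoldin gene Pfdn2 at 52.4 and 93.7 CPM. Mitochondrial chaperone genes were higher with WBRT for 4 of 7 in microglia (57.1%, against 53.7%; median 0.094) and 5 of 7 in BMDM (71.4%, against 55.9%; median 0.31). Their J-domain gene Dnaja3 stood at 31.04 CPM with WBRT and 7.90 without in BMDM, while Hspe1 (Hsp10) was at 186 CPM with WBRT and 281 without in microglia, and at 174 and 249 in BMDM. Over BMDM 2 of 7 mitochondrial chaperone genes were higher in microglia with WBRT (28.6%, against 45.9%; median -0.044) and 5 of 6 without (83.3%, against 48.9%; median 0.15).

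In microglia with WBRT the members depended on the Malat1 range of the well. The 45 wells with at least 1000 CPM of Malat1 held 50.5% of the plate's transcripts but 125 of 127 Hspa1a counts, so Hspa1a stood at 382 CPM (317 to 454) in them and 6.22 (0.75 to 22.5) in the 106 other wells. Dnajb1 stood at 489 CPM (416 to 570.0) and 49.8 (28.5 to 80.8), and Hspa5 at 1954 (1804 to 2110.0) and 772 (679 to 874). Hspa1b had 14 counts and 0. Hsp90aa1 was nearer, at 758 and 439 CPM, and Hspa8 was alike in both, at 1774 (1632 to 1923) and 1613 (1479 to 1760). Hsp90ab1 ran the other way, at 770 CPM (677 to 870) and 1445 (1315 to 1581). Hsph1, with 5 and 11 counts, stood at 15.3 CPM (4.95 to 35.6) and 34.2 (17.1 to 61.2), which overlap. Hspa1a, Hspa1b and Dnajb1 thus had their higher level in one range and Hsp90ab1 in the other, and Hsph1 did not follow the first 3.

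The plate without WBRT showed this less. There Hspa1a stood at 53.4 CPM (lower bound 36.8) in the 87 wells with at least 1000 CPM of Malat1 and 35.1 (16.0 to 66.5) in the 70 others, Dnajb1 at 202 and 226 CPM, and Hsp90ab1 at 1264 and 1259 CPM. Comparing like with like, the WBRT log2 ratio of Hspa1a was 2.73 among wells with at least 1000 CPM of Malat1 and -1.84 among wells under it, and that of Dnajb1 was 1.25 and -2.08. The 2 ranges thus gave opposite directions. The wells of the 2 ranges also differed in depth, with medians of 7147 and 2298 counts in microglia with WBRT and 5978 and 2814 without, and 27 and 63 wells lay between 500 and 2000 CPM of Malat1, near the limit. The part of RNA quality in these values was not tested. Per ERCC count, Hspa1a stood at 0.776 per 1000 in microglia with WBRT and 0.608 without (log2 0.33), where all genes had a median log2 ratio of -1.40 on that scale and Hspa8 stood at 6.71 and 35.1 per 1000.

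**Figure D3:**
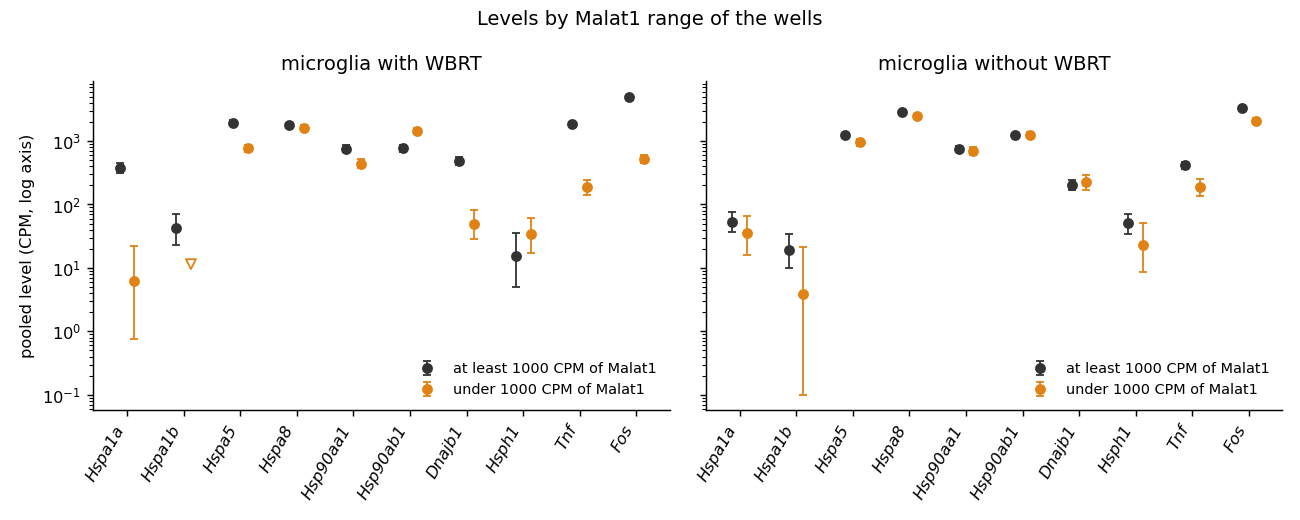
Pooled CPM (log axis) of the 8 genes, Tnf and Fos in wells with at least 1000 CPM of Malat1 (black) and under it (orange) of the microglia plates, with 95% counting intervals. A hollow triangle marks the upper limit of a gene with 0 counts. In microglia with WBRT Hspa1a stands at 382 CPM in the first range and 6.22 in the second, and Hsp90ab1 stands in the opposite order.

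Hspa1a was then related to Tnf, the inflammatory cytokine gene, and to Fos, the immediate early factor gene, across wells. Tnf stood at 1033 CPM (957 to 1115) in microglia with WBRT and 347 (308 to 388) without, and Fos at 2726 and 2992 CPM, while BMDM with and without WBRT had Tnf at 179.7 and 86.1 CPM. These levels pool both Malat1 ranges. The WBRT log2 ratio of Tnf in microglia was 2.16 among wells with at least 1000 CPM of Malat1 and -0.0018 under it. That of Fos was 0.54 and -1.99, in opposite directions. In microglia with WBRT Hspa1a correlated with Tnf at a Spearman rho of 0.54 and with Fos at 0.56 (n = 151 wells of 1 library, which share depth and RNA quality). Of the 23 wells with Hspa1a, 22 had Tnf (95.7%, 78.1 to 99.9), against 46 of the 128 wells without (35.9%, 27.7 to 44.9), and the Tnf level was 2184 CPM (1986 to 2398) in them and 509 (445 to 580) in the rest. Fos stood at 5433 CPM (5117 to 5763) in wells with Hspa1a and 1493 (1382 to 1612) in wells without. Wells with Hspa1a were deeper, with medians of 8897 and 2344 counts.

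The rho was lower among wells of like depth. Among the 75 wells in the middle of the plate's depth range it was 0.21 with Tnf and 0.26 with Fos, and after thinning to 1000 UMIs 0.38 with both. Among the 45 wells with at least 1000 CPM of Malat1, which were not of like depth, it was 0.53 with Tnf and 0.52 with Fos. Of the 106 wells under that limit 2 had Hspa1a, with 1 count each, too few for a relation to be read there. Among wells with at least 1000 CPM of Malat1 Tnf stood at 2352 CPM in the 21 wells with Hspa1a and 1260 in the 24 wells without, and Fos at 5766 and 3799 CPM. The median depths of these wells were 8897 and 4336 counts. The 24 wells also had astrocyte markers at 3488 CPM, against 93.5 in all wells with Hspa1a. At 1000 UMIs, 8 of 9 wells with Hspa1a (51.8% to 99.7%) and 18 of 36 without (32.9% to 67.1%) had Tnf in that range, with overlapping intervals. Tnf then stood at 2111 CPM (1271 to 3297) with Hspa1a and 1639 (1248 to 2114) without. Fos stood at 5889 CPM (4411 to 7703) and 4111 (3475 to 4829), and the intervals overlapped for both genes. In microglia without WBRT the rho was 0.17 with Tnf and 0.20 with Fos (n = 157), and 0.033 and 0.12 among the 87 wells of the first range. The Tnf level was 415 CPM (319 to 531) in wells with Hspa1a and 332 (291 to 377) in wells without, which overlap. In BMDM the rho with Tnf was 0.23 with WBRT and 0.15 without.

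**Figure D4:**
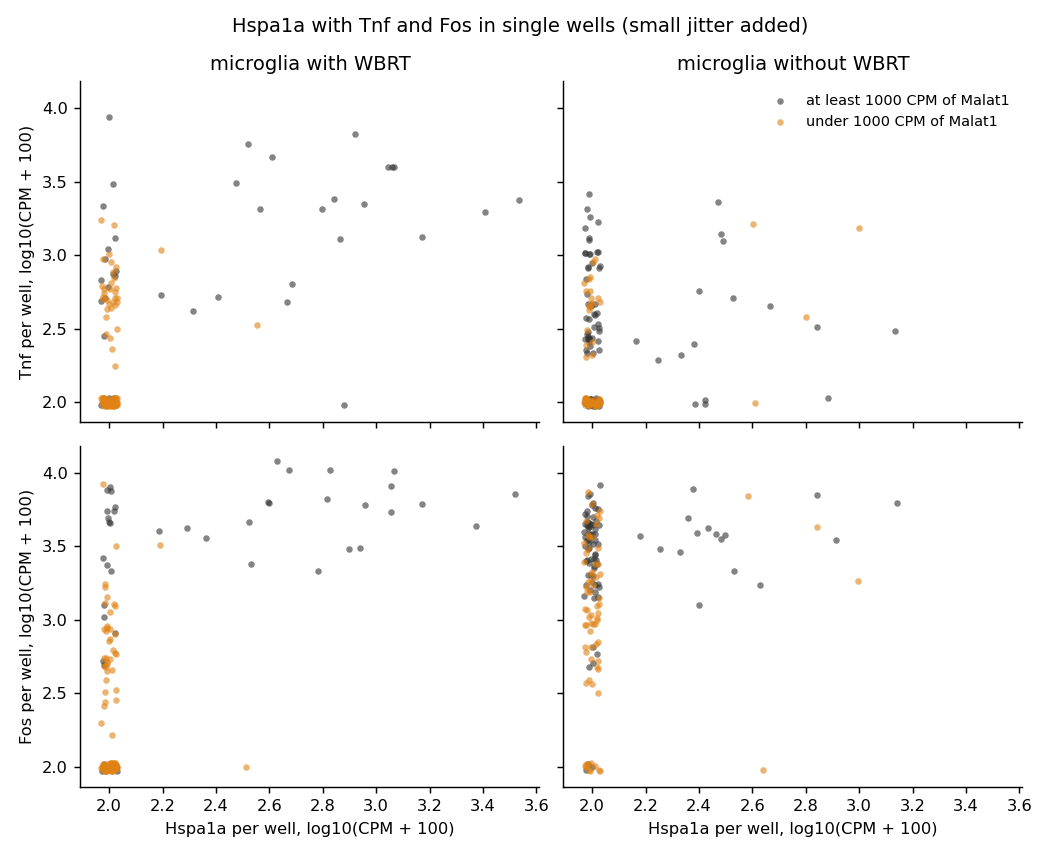
Hspa1a against Tnf (top) and Fos (bottom) per well, as log10 of CPM + 100, in microglia with WBRT (left) and without (right), coloured by Malat1 range. A small jitter was added. With WBRT 22 of 23 wells with Hspa1a also have Tnf, and 21 of the 23 have at least 1000 CPM of Malat1.

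Among the members themselves Hspa1a ranked the wells of microglia with WBRT most like Dnajb1 and Hspa1b. It correlated with Dnajb1 at 0.60, with Hspa1b at 0.49 and with Hspa5 at 0.39, with Hspa8 at 0.031 and with Hsp90ab1 at -0.28 (n = 151). Hsph1 stood outside this group, at 0.089 with Hspa1a, -0.066 with Hspa1b and 0.11 with Dnajb1. A UMI of Dnajb1 was in 20 of 23 Hspa1a wells of that plate, against 13 of 20 in microglia without WBRT. Over all kept wells its shares were 25.8% and 38.9%. Wells with Hspa1a were deeper than wells without, with medians of 8897 and 2344 counts with WBRT and 5984 and 4647 without. These shares and rho values were not matched for depth. In microglia without WBRT the rho of Hspa1a with Dnajb1 was 0.20 (n = 157). Among wells with at least 1000 CPM of Malat1 it was 0.55 with WBRT and 0.055 without. Hspa1a and Malat1 correlated at 0.54 in microglia with WBRT and 0.16 without.

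**Figure D5:**
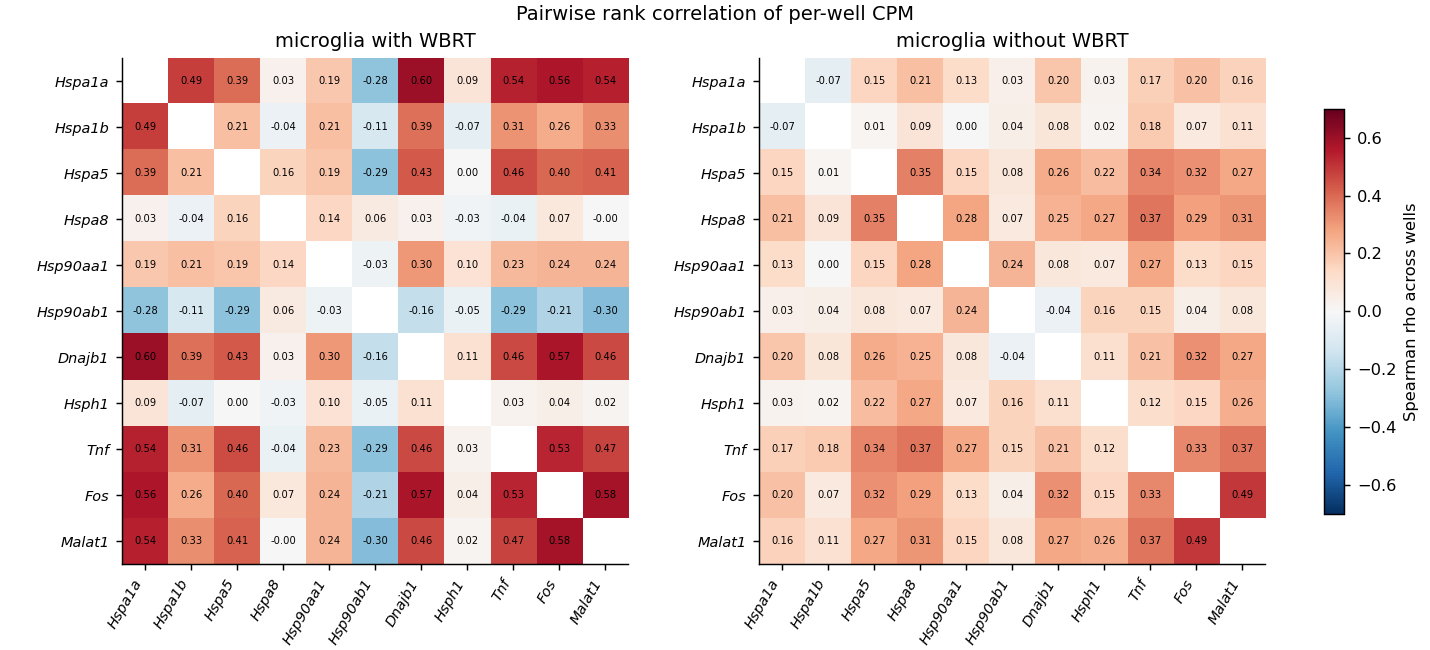
Spearman rho across wells between the 8 genes, Tnf, Fos and Malat1 in microglia with WBRT (left, 151 wells) and without (right, 157 wells), from blue (negative) to red (positive). In the plate with WBRT Hspa1a, Dnajb1, Tnf and Fos form a red block with Malat1, at 0.46 to 0.60 with each other, and Hsp90ab1 is blue against Hspa1a at -0.28.

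Genes most like Hspa1a by rho, among 1693 genes with a UMI in at least 20% of wells of microglia with WBRT, were Mlxipl (0.75), Nfkbiz (0.69), Ier2 (0.67), Ier5 (0.67), Cited2 (0.66), Ppp1r15a (0.66), Ccnl1 (0.66) and Hexim1 (0.63). Dnajb1 held rank 17, Fos rank 27, Malat1 rank 35 and Tnf rank 39. Mlxipl encodes a glucose-responsive transcription factor, Nfkbiz a nuclear regulator of NF-kappaB targets, Ier2 and Ier5 are immediate early genes, and Ppp1r15a is a phosphatase subunit induced by stress. Their rho in the other microglia plate was 0.032 for Mlxipl and 0.22 to 0.32 for the other 7. In microglia without WBRT the 8 leading genes of 2464 were Bcl6 (0.39), Glrx2 (0.36), Jun (0.36), Tmem88 (0.36), Lyl1 (0.35), Clk1 (0.35), Oas2 (0.33) and Nlrp3 (0.32). Their rho in microglia with WBRT was 0.67 for Tmem88, 0.61 for Clk1, 0.58 for Jun and 0.51 for Glrx2. It was 0.45 for Nlrp3, 0.44 for Bcl6, 0.33 for Lyl1 and 0.16 for Oas2. The 2 sets of 8 had 0 genes in common, which for sets this small does not show that the plates differ.

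Microglia markers stayed high in the wells with Hspa1a. In microglia with WBRT, wells with Hspa1a summed to 12306 CPM of microglia markers and wells without to 9668. Astrocyte markers summed to 93.5 and 1217 CPM, monocyte markers to 133 and 403, border-associated macrophage markers to 88.6 and 375, dendritic cell markers to 335 and 307 and neutrophil markers to 325 and 262. Wells without Hspa1a but with at least 1000 CPM of Malat1 share the Malat1 range of most wells with Hspa1a, but were not nearer in all markers. They had monocyte markers at 136 CPM, near the wells with Hspa1a, and border-associated macrophage markers at 211. Their microglia markers summed to 9751 CPM, astrocyte markers to 3488, dendritic cell markers to 177 and neutrophil markers to 341. The astrocyte and dendritic cell sums lay further from those of wells with Hspa1a than the sums of all wells without it. Of the 6 T and NK cell markers listed 3 were measured (Nkg7, Gzma and Klrb1c), which were at 0 in wells with and without Hspa1a. The listed Cd3e, Cd3g and Trbc2 were not found among the measured symbols, and other T cell receptor and CD3 genes were not analysed here. Wells with 3 or more dendritic cell marker counts held 56 of 127 Hspa1a counts and 29.7% of transcripts, and without them the WBRT log2 ratio of Hspa1a in microglia was 2.15. Of the 9 dendritic cell markers 4 (Flt3, Ccr7, Zbtb46 and Cd209a) had 0 counts in that plate. These wells are thus not named as dendritic cells. Immediate early genes as a list were higher with WBRT in microglia for 5 of 23 and lower for 18 (21.7% higher, against 53.7% of all counted genes; median log2 -0.40), with Nr4a1 at 514 CPM with WBRT and 1111 without and Zfp36 at 1676 and 3141, on the other side from pooled Hspa1a. These values pool both Malat1 ranges. For Fos, a gene of the list, the log2 ratio was 0.54 at 1000 CPM of Malat1 or more and -1.99 under it. Of the inflammatory genes 8 of 17 were higher (47.1%, against 53.7%), among them Cxcl2 at 161 against 42.3 CPM, and 9 were lower, among them Ccl4 at 1156 against 2696 CPM. In BMDM 7 of 23 immediate early genes (30.4%) and 9 of 18 inflammatory genes (50%) were higher with WBRT, against 55.9%. Over BMDM, immediate early genes were higher in microglia for 15 of 23 with WBRT (65.2%, against 45.9%) and 21 of 23 without (91.3%, against 48.9%), and inflammatory genes for 11 of 18 (61.1%) and 11 of 17 (64.7%).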

How the data were processed

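Single cells were sorted into 384-well plates and processed with the plate method that the labels cite, which gives each transcript a unique molecular identifier (UMI). The authors deposited expected counts per gene and well, with mitochondrial and spike-in rows. Per the submitters' processing notes the build was GRCm38, while the aligner and counter are not given in any source used here. Tested on the values, 100% matched within 0.005 a correction for UMIs that coincide by chance among 4096. Wells with at least 1000 counts and an ERCC share under 50% were kept, and counts were summed per plate. CPM were computed over all endogenous counts. Expected counts were rounded to whole numbers only for intervals and for TMM factors (edgeR 4.0.16). Exact Poisson intervals were used for levels, exact conditional intervals for folds and exact Clopper-Pearson intervals for shares, all at 95%. They treat transcripts as independent, and their computation was checked on simulated data. Log2 ratios used a pseudocount of 5 CPM, which understates differences of low genes. With 1 plate per group no comparison could be tested over samples. Spearman's rho was computed over wells as a description. Genes counted in lists had at least 20 CPM in 1 of the 2 plates; genes named were the 8 members, Tnf, Fos, up to 4 genes of each list with the largest log2 ratio per comparison, and the 8 genes with the highest rho with Hspa1a in each microglia plate without mitochondrial, ribosomal protein or numbered (Gm, Rik) genes. Members, lists and the 1000 CPM limit on Malat1 were chosen with earlier results of these data known. Sequences came from RefSeq (GRCm38.p6) and the GENCODE annotation, and doublets were not called, as cells were sorted singly. Of 135 symbols of the members and gene lists, 2 were not found, and of 72 cell type marker symbols 13, so sums of markers cover 59. Analyses used Python 3.11.15 with numpy 2.4.6, scipy 1.17.1 and pandas 2.3.3.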

Additional observations from a re-analysis of the deposited data

Results flagged for a closer look

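Counts of the 8 genes appear in wells that the filter left out. Their counts there were 344 in microglia with WBRT, 310 in microglia without WBRT, 119 in BMDM with WBRT and 125 in BMDM without WBRT. That is 3482, 5394, 2621 and 4437 CPM in left-out wells, against 5281, 6244, 4395 and 5079 CPM in kept wells in the same order. They stand out because these wells enter no comparison and their counts exceed the 3 counts that a count of 0 allows. The left-out wells held 98803, 57472, 45398 and 28170 counts in all.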

How the results depend on the processing

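No paired analysis was possible because each group is 1 plate and no numbers pair them. The median log2 ratio of the 8 genes moved for WBRT in microglia to 0.33 with only wells of at least 1000 CPM of Malat1 and to -1.65 per ERCC count (chosen after seeing the data), for microglia over BMDM with WBRT to 0.71 and -1.22 under the same settings and to 0.61 without BMDM wells of 5 or more microglia marker counts, and for microglia over BMDM without WBRT to 0.88 under the last. Per ERCC count all genes had a median of -1.40 in both of these comparisons with the microglia plate with WBRT. The rho of Hspa1a with Tnf in microglia with WBRT was 0.38 thinned to 1000 UMIs, 0.21 at middle depths and 0.20 under 1000 CPM of Malat1, and with Fos 0.38, 0.26 and 0.084, where the values under 1000 CPM rest on 2 wells with Hspa1a among 106. Without WBRT the rho with Tnf was 0.29 thinned, 0.033 with only wells of at least 1000 CPM of Malat1 and 0.27 under it (4 wells with Hspa1a), and with Fos 0.099 thinned. Of 476 log2 ratios of single members under other settings 26 were counted as changed in sign, a count that leaves out changes of Hspa1b and Hsph1. For WBRT in microglia these were, with wells weighted alike, Hspa5 -0.092, Hsp90ab1 0.059 and Dnajb1 -0.057; thinned to 1000 UMIs, Hspa5 -0.13, Hsp90ab1 0.12 and Dnajb1 -0.14; with only wells of at least 1000 CPM of Malat1, Hsp90aa1 0.017; without wells of 3 or more dendritic cell marker counts, Hsp90ab1 0.020 and Dnajb1 -0.19; and per ERCC count, Hspa5 -1.44 and Dnajb1 -1.26. For WBRT in BMDM they were, thinned, Hsp90aa1 0.029; without the dendritic cell marker wells, Hspa1a -0.075 and Hspa5 -0.039; without wells of 5 or more microglia marker counts, Hspa1a -0.12, Hspa5 -0.020 and Hsp90aa1 0.095; and per ERCC count, Hspa5 -0.13. For microglia over BMDM with WBRT they were, with wells of at least 3000 counts, Hsp90ab1 -0.12; with wells weighted alike, Hsp90aa1 -0.041; thinned, Hsp90aa1 -0.25; with only wells of at least 1000 CPM of Malat1, Hsp90ab1 -0.40; and per ERCC count, Hspa5 -0.99, Hsp90aa1 -1.36 and Hsp90ab1 -1.42. Without WBRT it was Hspa8 at -0.13, thinned. The cause was not tested. The log2 ratio of Hspa1a in microglia was positive under all of these settings, from 0.33 per ERCC count to 2.73 with only wells of at least 1000 CPM of Malat1, but was -1.84 in wells under that limit. Low counts limit Hspa1b and Hsph1, whose WBRT ratios in microglia had intervals that include equality. Their signs changed as well for microglia over BMDM with WBRT. Hspa1b stood at 21.6 and 37.9 CPM over all wells, but at 42.7 and 20.9 CPM with at least 1000 CPM of Malat1 (log2 0.88). Hsph1 stood at 24.6 and 22.7 CPM over all wells, but at 15.3 and 21.8 CPM in that range (log2 -0.40).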
